A study of Arabidopsis thaliana with 12 samples.

Results

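EDS1, PAD4 and SAG101 encode lipase-like proteins, and ADR1, ADR1-L1, ADR1-L2, NRG1.1 and NRG1.2 encode helper immune receptors. They are the signalling node through which the plant's receptors of one large class trigger defence and cell death in Arabidopsis. The 8 genes were taken by their locus identifiers from a table of 27416 gene models, and all 8 had enough counts to be tested. They are needed for, or linked to, the runaway cell death of lsd1 mutants, and their transcript levels are described here over all 4 groups of the study.

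RNA was sequenced from rosettes of Arabidopsis plants of the Ws-0 accession (Wassilewskija) that were 2 weeks old and grown on MS medium under 16 h of light a day. Each group had 3 biological replicates. The lsd1-1 group carries a mutation in LSD1, a zinc finger gene that restrains the spread of cell death. LSD1-GFP plants overexpressed a fusion of LSD1 with green fluorescent protein under the 35S promoter, which is active in most tissues. LSD1-GR+DEX plants overexpressed a fusion of LSD1 with a glucocorticoid receptor domain, also under 35S, and these seedlings were moved on nylon mesh to medium with 30 µM dexamethasone (DEX), the hormone analog to which that domain responds. Wild-type, lsd1-1 and LSD1-GFP plants were not treated. Neither LSD1-GR plants without DEX nor wild-type plants with DEX were among the samples, so transgene, hormone analog and transfer cannot be told apart in that group. A line with green fluorescent protein alone was not among the samples either. No source used here gives the number of independent lines behind each transgene or the time on DEX.

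In the textbook account, sensor receptors with a TIR domain make small nucleotide signals that bind a pair formed by EDS1 with PAD4 or with SAG101. The EDS1-PAD4 pair works with the ADR1 helpers and the EDS1-SAG101 pair with the NRG1 helpers. Both helper families carry an RPW8-type coiled coil and act at the plasma membrane as calcium channels. The ADR1 branch supports salicylic acid production and basal resistance, and the NRG1 branch is mostly tied to cell death.

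Each library held 9781360 to 11503432 counts, and the 8 genes had 117 to 1116 counts in any library. LSD1 itself averaged 0.09 ± 0.09 CPM (its count relative to the scaled library total) in lsd1-1, 2351 ± 305 in LSD1-GFP, 178 ± 36.8 in LSD1-GR+DEX and 23.6 ± 1.87 in wild type (SD, n = 3 each). Of all 19487 genes tested, 8.30% were called different between lsd1-1 and wild type, 29.1% between LSD1-GFP and wild type and 36.0% between LSD1-GR+DEX and wild type, at an adjusted p below 0.05. Replicates did not overlap with wild type for 26.6% of all genes in lsd1-1, 42.6% in LSD1-GFP and 47% in LSD1-GR+DEX. Between lsd1-1 and LSD1-GFP it was 41.6%, between lsd1-1 and LSD1-GR+DEX 36%, and between the fusion lines 45.4%. Replicate 2 of LSD1-GR+DEX stood apart from the others of its group. Its chi-square per gene was 11.4 against replicate 1 and 13.3 against replicate 3, while replicates 1 and 3 differed by 2.21. Replicate 3 of wild type likewise stood apart, with 10.04 against replicate 1 and 10.8 against replicate 2, while replicates 1 and 2 differed by 3.35. The other pairs within a group gave 4.80 to 9.99. The summed level of 5 root markers ranged from 15.1 to 37.7 CPM in LSD1-GR+DEX and from 15.1 to 23.1 CPM in wild type, and replicate 2 was the lowest of the LSD1-GR+DEX libraries. Of these, COBL9 and EXPA7 were called higher than in wild type. The summed level of 3 mesophyll markers was 20060 to 23570 CPM in lsd1-1, 33270 to 39620 in LSD1-GFP, 16970 to 19010 in LSD1-GR+DEX and 20830 to 27040 in wild type. All 3 were called higher in LSD1-GFP and RBCS1A and LHCB1.3 lower in LSD1-GR+DEX, in each case against wild type. CA1 did not fall in LSD1-GR+DEX, where it averaged 2696 ± 186 CPM against 2118 ± 439 CPM in wild type and was not called. Marker sums of guard cells and phloem overlapped between all groups. The summed level of 3 flower markers was 3.21 to 4.17 CPM in lsd1-1, 1.04 to 1.83 in LSD1-GFP, 3.08 to 4.03 in LSD1-GR+DEX and 4.05 to 4.72 in wild type. AP1 and SEP3 were called lower in LSD1-GFP, and SEP3 lower in lsd1-1, against wild type. AP1 went the other way in lsd1-1, at 1.98 ± 0.06 CPM against 1.34 ± 0.56 CPM in wild type, and was not called. In bulk rosettes, fewer cells of a type and less RNA per cell cannot be told apart.

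The 250 bases before the annotated start of EDS1, PAD4, SAG101 and ADR1 are shown because EDS1 and PAD4 were called in lsd1-1, ADR1 in the fusion lines and SAG101 in neither against wild type. They were read from the TAIR10.1 reference assembly (RefSeq) and not from the Ws-0 plants sequenced, whose promoters may differ. Capitals mark the core of the W-box, the element that WRKY transcription factors bind, with the letters TTGAC, searched on both strands and marked as it reads on the strand shown.
EDS1: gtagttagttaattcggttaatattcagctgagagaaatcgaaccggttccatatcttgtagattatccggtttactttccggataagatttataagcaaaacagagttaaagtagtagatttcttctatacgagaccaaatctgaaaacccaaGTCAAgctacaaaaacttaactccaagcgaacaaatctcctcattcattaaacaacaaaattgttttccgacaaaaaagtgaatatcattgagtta
PAD4: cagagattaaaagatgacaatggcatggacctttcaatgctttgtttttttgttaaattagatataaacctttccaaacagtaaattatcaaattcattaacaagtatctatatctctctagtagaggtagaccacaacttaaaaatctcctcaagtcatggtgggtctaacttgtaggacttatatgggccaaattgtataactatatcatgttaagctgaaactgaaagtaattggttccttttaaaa
SAG101: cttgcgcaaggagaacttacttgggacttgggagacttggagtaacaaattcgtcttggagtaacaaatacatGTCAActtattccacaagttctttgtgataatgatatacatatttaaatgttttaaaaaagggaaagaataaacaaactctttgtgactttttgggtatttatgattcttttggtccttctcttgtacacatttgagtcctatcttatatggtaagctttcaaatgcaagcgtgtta
ADR1: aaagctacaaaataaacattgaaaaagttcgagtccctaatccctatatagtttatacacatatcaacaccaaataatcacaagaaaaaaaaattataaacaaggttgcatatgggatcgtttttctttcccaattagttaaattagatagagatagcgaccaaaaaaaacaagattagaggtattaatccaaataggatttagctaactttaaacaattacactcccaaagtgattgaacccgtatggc
These windows are chr3:17758148-17758397 on the minus strand for EDS1, chr3:19430845-19431094 on the plus strand for PAD4, chr5:4828249-4828498 on the plus strand for SAG101 and chr1:12168518-12168767 on the plus strand for ADR1. The core occurred 1 time in EDS1, 96 bases before the start, and 1 time in SAG101, 177 bases before it. Among the promoters not printed, NRG1.1 held 1 and NRG1.2 held 2 copies. PAD4, ADR1, ADR1-L1 and ADR1-L2 held no match. Of 26694 promoters of this length, 44.8% held at least 1 copy on either strand. TGACG, the core bound by TGA factors, occurred in NRG1.2 alone of the 8 genes and in 18.8% of all promoters. It can share the letters TGAC with a W-box core. CACGTG, the G-box, was in none of the 8 windows and in 6.74% of all promoters. PAD4, the gene of the 8 whose transcript differed most between lsd1-1 and the other groups, was without a W-box core in this window, and EDS1 held 1.

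EDS1 and PAD4 were higher in lsd1-1 than in each of the other groups. The partner SAG101 was called higher or lower in no comparison with lsd1-1 or wild type. Together with ADR1-L1, EDS1 and PAD4 made 3 of the 8 genes called in lsd1-1 against wild type, all higher, where 5.19% of all genes were called higher and 3.10% lower. Without wild-type replicate 3, EDS1 (log2 0.72, adjusted p = 0.00138) and PAD4 (1.03, adjusted p = 0.00389) stayed called and ADR1-L1 (0.28, adjusted p = 0.142) did not. The median log2 difference of the 8 was 0.30, against -0.01 over all genes.

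EDS1 (AT3G48090, chr3:17755329-17758147, minus strand, 4 exons) is the shared partner of both lipase-like pairs. In the order of replicates, its transcript level was 103, 85.6 and 99.5 CPM in lsd1-1, 59.6, 52.9 and 56.9 in LSD1-GFP, 58.5, 63.6 and 59.0 in LSD1-GR+DEX and 63.5, 53.2 and 57.4 in wild type. All 3 lsd1-1 libraries lay above every other library, and the other groups overlapped. The mean was 96.1 ± 9.22 CPM in lsd1-1 and 58.0 ± 5.20 CPM in wild type (SD, n = 3 each), a 1.66-fold rise (log2 0.73, SE 0.09, adjusted p = 0.000223 by edgeR's quasi-likelihood test). Against LSD1-GFP the rise was 1.70-fold (log2 0.77, SE 0.09, adjusted p = 3.77e-05), and against LSD1-GR+DEX it was 1.59-fold (log2 0.67, SE 0.09, adjusted p = 0.000206). LSD1-GFP and LSD1-GR+DEX were not called different from wild type, with log2 differences of -0.04 (SE 0.09, adjusted p = 0.786) and 0.06 (SE 0.09, adjusted p = 0.655).

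PAD4 (AT3G52430, chr3:19431095-19434450, plus strand, 2 exons) pairs with EDS1 and promotes salicylic acid signalling. It stood at 45.9, 38.04 and 41.8 CPM in lsd1-1, at 23.04, 19.3 and 19.8 in LSD1-GFP, at 15.3, 21.2 and 14.6 in LSD1-GR+DEX and at 23.9, 17.1 and 23.8 in wild type. The lsd1-1 libraries were again above all 9 others. PAD4 averaged 41.9 ± 3.94 CPM in lsd1-1 and 21.6 ± 3.88 CPM in wild type, a 1.94-fold rise (log2 0.96, SE 0.15, adjusted p = 0.00144). It was 2.02-fold higher in lsd1-1 than in LSD1-GFP (log2 1.02, SE 0.15, adjusted p = 0.000263) and 2.46-fold higher than in LSD1-GR+DEX (log2 1.299, SE 0.15, adjusted p = 9.21e-05). Replicates 1 and 3 of LSD1-GR+DEX held the lowest PAD4 values of all libraries, but replicate 2 lay within the range of wild type. The group was not called different from wild type (log2 -0.34, SE 0.16, adjusted p = 0.106). Without LSD1-GR+DEX replicate 2 the difference was -0.55 and called (adjusted p = 0.0113), as it was without wild-type replicate 2 (-0.49, adjusted p = 0.0276). Over all alternatives for PAD4 in this comparison the adjusted p ranged from 0.0113 to 0.312.

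SAG101 (AT5G14930, chr5:4828499-4830982, plus strand, 3 exons) pairs with EDS1 in the branch that uses the NRG1 helpers. It stood at 20.0, 14.0 and 17.2 CPM in lsd1-1, at 14.4, 15.0 and 12.5 in LSD1-GFP, at 17.3, 20.9 and 19.3 in LSD1-GR+DEX and at 20.4, 18.4 and 13.8 in wild type. Wild type and lsd1-1 spread over almost the same range, and all 3 libraries of LSD1-GR+DEX were above those of LSD1-GFP. SAG101 averaged 17.1 ± 3.02 CPM in lsd1-1 and 17.5 ± 3.36 CPM in wild type, a log2 difference of -0.04 (SE 0.15, adjusted p = 0.934). The LSD1-GR+DEX mean of 19.1 ± 1.80 CPM was 1.37-fold above the LSD1-GFP mean of 14.0 ± 1.32 CPM (log2 0.45, SE 0.16, adjusted p = 0.040). That call was lost when LSD1-GFP replicate 1, 2 or 3 or LSD1-GR+DEX replicate 2 or 3 was left out, with log2 0.37 to 0.51 and adjusted p from 0.0550 to 0.126. It was also lost with DESeq2 (adjusted p = 0.0510) and with limma voom (adjusted p = 0.0505). In LSD1-GFP against wild type the difference of -0.32 (SE 0.16, adjusted p = 0.142) was called only without wild-type replicate 3 (-0.47, adjusted p = 0.0320), with a range of 0.0320 to 0.407 over the alternatives.

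**Figure D1:**
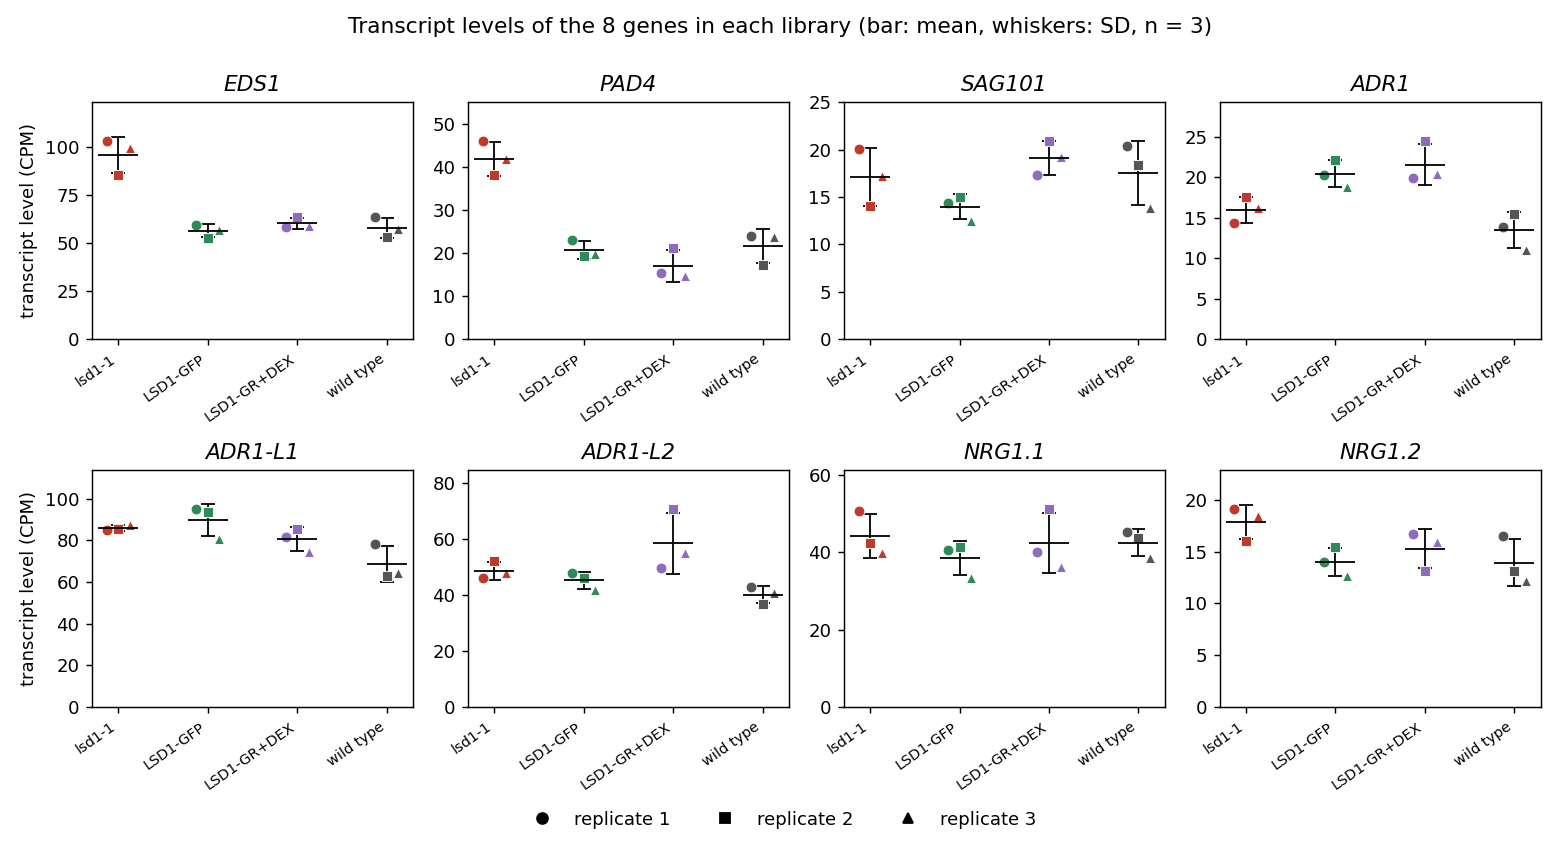
Transcript level in CPM of each of the 8 genes in each library, by group, with replicate 1 as a circle, replicate 2 as a square and replicate 3 as a triangle. Bars are means and whiskers SD (n = 3). EDS1 and PAD4 in lsd1-1 sit above all other libraries, while SAG101 and NRG1.1 overlap between lsd1-1 and wild type.

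Because PAD4 and SAG101 each pair with EDS1, the transcript ratios of the 3 genes within each library were compared over the groups. A ratio within a library is free of library scaling. Levels were divided by exon length, and an exact permutation test over the 12 libraries (15400 partitions into 4 groups of 3, smallest possible p 6.49e-05) asked whether the log2 ratio differed between groups, with Benjamini-Hochberg adjustment over 7 ratios.

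PAD4 and EDS1 did not move in equal proportion. The ratio of PAD4 to EDS1 was 0.504, 0.503 and 0.476 in lsd1-1, 0.438, 0.413 and 0.395 in LSD1-GFP, 0.296, 0.378 and 0.280 in LSD1-GR+DEX and 0.426, 0.365 and 0.470 in wild type (exact permutation p = 0.00623, adjusted p = 0.0124). It was highest in the 3 lsd1-1 libraries and lowest in replicates 1 and 3 of LSD1-GR+DEX, although replicate 3 of wild type came close to lsd1-1. The ratio of SAG101 to EDS1 averaged 0.217 ± 0.019 in lsd1-1, 0.305 ± 0.040 in LSD1-GFP, 0.388 ± 0.023 in LSD1-GR+DEX and 0.371 ± 0.067 in wild type (exact permutation adjusted p = 0.0124).

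The ratio of SAG101 to PAD4 spanned the widest range. It was 0.474, 0.400 and 0.446 in lsd1-1, 0.677, 0.845 and 0.684 in LSD1-GFP, 1.22, 1.06 and 1.43 in LSD1-GR+DEX and 0.922, 1.16 and 0.628 in wild type (exact permutation p = 0.00175, adjusted p = 0.0123). Per exon length, SAG101 transcripts were thus below the PAD4 level in every lsd1-1 and LSD1-GFP library and above it in every LSD1-GR+DEX library. Wild type lay on both sides. With any 1 library left out, the adjusted p of these 3 ratios stayed between 0.00227 and 0.0495.

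**Figure D2:**
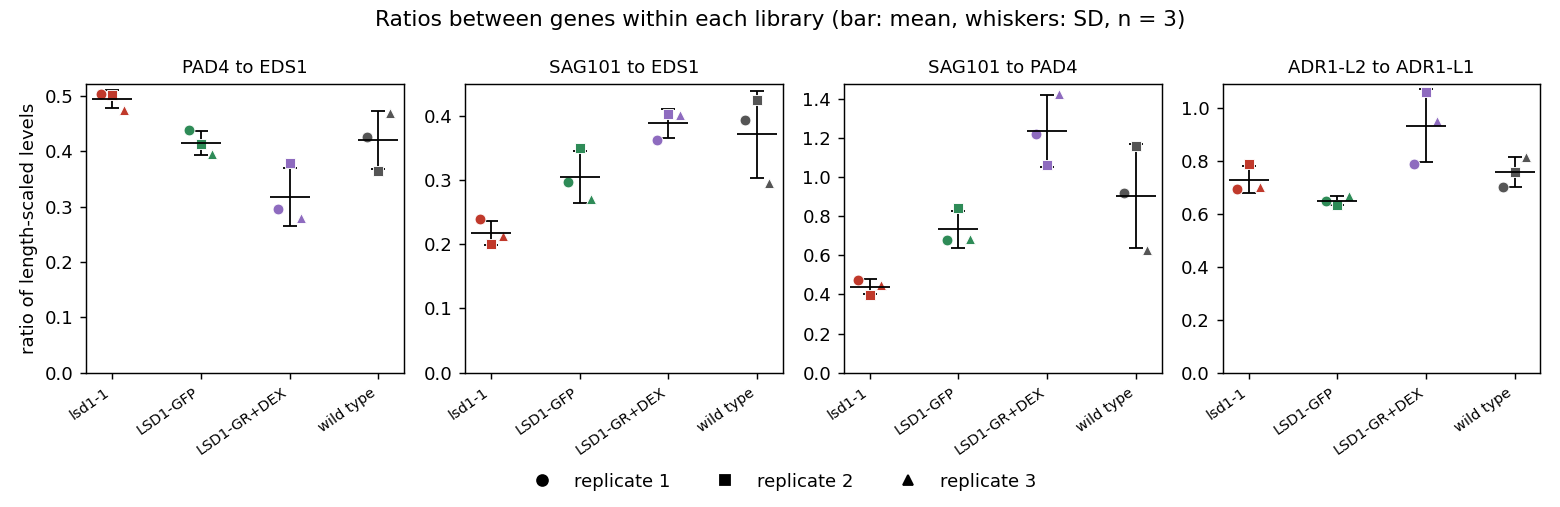
Ratio of length-scaled transcript levels within each library for 4 pairs of genes, by group, with replicates 1 to 3 as circle, square and triangle, bars for means and whiskers for SD (n = 3). SAG101 to PAD4 is lowest in lsd1-1, between 0.400 and 0.474, and highest in LSD1-GR+DEX, between 1.06 and 1.43.

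The ADR1 helpers were called in different groups. ADR1 was higher in both lines with an LSD1 fusion, ADR1-L1 in LSD1-GFP and less firmly in lsd1-1, and ADR1-L2 in LSD1-GR+DEX, each against wild type. Between lsd1-1 and the fusion lines, ADR1-L1 and ADR1-L2 were not called different. In lsd1-1 against LSD1-GFP their log2 differences were -0.06 and 0.10 (adjusted p = 0.677 and 0.554). Against LSD1-GR+DEX they were 0.09 and -0.26 (adjusted p = 0.53 and 0.129). In LSD1-GFP 2 of the 8 genes were called against wild type, both higher, where 15.5% of all genes were called higher. In LSD1-GR+DEX it was also 2 of 8, where 19.3% of all genes were called higher. With 8 genes, neither count stands clear of the share over all genes. The median log2 difference of the 8 was -0.01 in LSD1-GFP and 0.13 in LSD1-GR+DEX, and over all genes it was 0.00 and 0.01. These comparisons share the wild-type libraries, so their values are not independent of each other. Levels of mesophyll markers also differed between these lines and wild type, as given above, and so did root markers in LSD1-GR+DEX and flower markers in LSD1-GFP. Their part in the ADR1 results was not tested.

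ADR1 (AT1G33560, chr1:12168768-12172119, plus strand, 5 exons), the founding member of the family, is known for constitutive defence and drought tolerance when activated. It stood at 14.3, 17.5 and 16.1 CPM in lsd1-1, at 20.3, 22.1 and 18.8 in LSD1-GFP, at 19.9, 24.4 and 20.4 in LSD1-GR+DEX and at 13.9, 15.4 and 11.1 in wild type. Every library of both fusion lines was above every library of lsd1-1 and wild type, which overlapped. The mean of 20.4 ± 1.68 CPM in LSD1-GFP was 1.52-fold above the wild-type mean of 13.5 ± 2.22 CPM (log2 0.60, SE 0.13, adjusted p = 0.00406). LSD1-GR+DEX, at 21.6 ± 2.49 CPM, was 1.60-fold above wild type (log2 0.68, SE 0.13, adjusted p = 0.00138). Without LSD1-GR+DEX replicate 2 the log2 difference was 0.56 (adjusted p = 0.00670), in a range of 4.61e-05 to 0.00745 over the alternatives. In lsd1-1 the difference from wild type was not called (16.0 ± 1.60 CPM, log2 0.25, SE 0.14, adjusted p = 0.332).

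ADR1 was also lower in lsd1-1 than in LSD1-GR+DEX (log2 -0.43, SE 0.13, adjusted p = 0.0368), where EDS1, PAD4 and ADR1 were the 3 of the 8 genes called. Over all genes 17.8% were called there, 9.40% lower and 8.40% higher. The call was lost without lsd1-1 replicate 1 or 3 or without any 1 replicate of LSD1-GR+DEX, with log2 between -0.49 and -0.30 and adjusted p from 0.0502 to 0.173. Against LSD1-GFP the difference was -0.35 (SE 0.13, adjusted p = 0.0650). EDS1 and PAD4 were the 2 of the 8 called in that comparison, where 26.5% of all genes were called, 12.8% higher and 13.6% lower. The replicate numbers paired the samples of this comparison, and with them as a block ADR1 was called lower (-0.35, adjusted p = 0.0133) and NRG1.2 higher (0.34, adjusted p = 0.0354). ADR1 was called lower there also in a fit of these 2 groups alone (-0.35, adjusted p = 0.0464). The ranges over the alternatives were 0.0133 to 0.253 for ADR1 and 0.0354 to 0.216 for NRG1.2.

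ADR1-L1 (AT4G33300, chr4:16051051-16055088, minus strand, 5 exons) and ADR1-L2 are the other full-length family members and share functions with ADR1. ADR1-L1 stood at 85.0, 85.5 and 87.6 CPM in lsd1-1, at 94.9, 93.7 and 80.7 in LSD1-GFP, at 81.5, 85.6 and 74.5 in LSD1-GR+DEX and at 78.5, 62.8 and 64.4 in wild type. Wild type was lowest, but its replicate 1 lay above the lowest library of LSD1-GR+DEX. In LSD1-GFP the mean of 89.8 ± 7.86 CPM was 1.31-fold above the 68.6 ± 8.62 CPM of wild type (log2 0.39, SE 0.09, adjusted p = 0.00678). In lsd1-1 the mean of 86.0 ± 1.38 CPM was 1.25-fold above wild type (log2 0.33, SE 0.09, adjusted p = 0.0469). That call was lost in a fit of these 2 groups alone (adjusted p = 0.0610) and without lsd1-1 replicate 1, 2 or 3 or wild-type replicate 2 or 3, where log2 lay between 0.27 and 0.34 and the adjusted p between 0.0976 and 0.169.

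In LSD1-GR+DEX the ADR1-L1 mean of 80.6 ± 5.65 CPM was not called different from wild type (log2 0.23, SE 0.09, adjusted p = 0.0695). It was called without wild-type replicate 1 (0.32, adjusted p = 0.0202), in a range of 0.0202 to 0.243 over the alternatives. The exons of ADR1-L1 overlap a non-coding RNA on the other strand, AT4G08785, by 506 bases. The strand setting of the counting is not given, so reads of both loci may not be told apart. Of the 3596 runs of 50 bases in ADR1-L1, 136 (3.78%) also occur elsewhere in the genome. So do 47 of its 3546 runs of 100 bases.

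ADR1-L2 (AT5G04720, chr5:1360589-1363907, plus strand, 5 exons) had its highest level in LSD1-GR+DEX. It stood at 46.0, 52.4 and 47.9 CPM in lsd1-1, at 47.8, 46.4 and 41.9 in LSD1-GFP, at 49.9, 70.7 and 55.1 in LSD1-GR+DEX and at 42.8, 37.1 and 40.8 in wild type. The libraries of lsd1-1 and of LSD1-GR+DEX were all above those of wild type, and replicate 2 of LSD1-GR+DEX was far above the rest. Over all genes, 26.6% were without overlap between lsd1-1 and wild type and 47% between LSD1-GR+DEX and wild type. The mean was 58.6 ± 10.8 CPM in LSD1-GR+DEX and 40.2 ± 2.92 CPM in wild type, a 1.46-fold rise (log2 0.54, SE 0.12, adjusted p = 0.00230). Without LSD1-GR+DEX replicate 2 the rise was 0.36 and still called (adjusted p = 0.00895), in a range of 0.000625 to 0.0143 over the alternatives. In lsd1-1 the difference from wild type was 0.28 (SE 0.12) and not called (adjusted p = 0.178).

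Against LSD1-GFP, ADR1-L2 was 1.29-fold higher in LSD1-GR+DEX (log2 0.37, SE 0.11, adjusted p = 0.0236). With SAG101 it made 2 of the 8 genes called in that comparison, both higher, where 32.8% of all genes were called, 16.5% higher and 16.2% lower. The call of ADR1-L2 was lost without LSD1-GR+DEX replicate 2 (0.20, adjusted p = 0.123), without LSD1-GFP replicate 3 (0.31, adjusted p = 0.0832) and in a fit of these 2 groups alone (0.36, adjusted p = 0.0606). Without LSD1-GR+DEX replicate 2, PAD4 was instead called lower in LSD1-GR+DEX than in LSD1-GFP (-0.48, adjusted p = 0.0260). With all libraries that PAD4 difference was -0.28 (SE 0.16, adjusted p = 0.193), and its range over the alternatives was 0.0260 to 0.468.

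The 3 ADR1 genes differed unequally. The ratio of ADR1-L2 to ADR1-L1, per exon length, was 0.696, 0.788 and 0.703 in lsd1-1, 0.648, 0.636 and 0.668 in LSD1-GFP, 0.787, 1.06 and 0.951 in LSD1-GR+DEX and 0.701, 0.758 and 0.814 in wild type (exact permutation p = 0.00708, adjusted p = 0.0124). All 3 LSD1-GFP libraries lay below every other library, and replicates 2 and 3 of LSD1-GR+DEX lay above every other. Without LSD1-GFP replicate 1 or 2 the adjusted p was 0.0577 and 0.0624. The ratio of ADR1-L1 to ADR1 averaged 4.34 ± 0.42 in lsd1-1, 3.53 ± 0.19 in LSD1-GFP, 3.01 ± 0.25 in LSD1-GR+DEX and 4.15 ± 0.77 in wild type (exact permutation adjusted p = 0.0414). That of ADR1-L2 to ADR1 averaged 3.15 ± 0.14 in lsd1-1, 2.29 ± 0.13 in LSD1-GFP, 2.79 ± 0.20 in LSD1-GR+DEX and 3.15 ± 0.66 in wild type (exact permutation adjusted p = 0.047). Both missed the threshold when most single libraries were left out, with adjusted p of up to 0.090 and 0.162.

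The NRG1 helpers, NRG1.1 (AT5G66900, chr5:26714764-26717795) and NRG1.2 (AT5G66910, chr5:26718130-26721377), are neighbours on the minus strand with 5 exons each. Neither was called in any of the 6 comparisons between groups, except that NRG1.2 was called higher in lsd1-1 than in LSD1-GFP with replicate number as a block, by which those samples pair (log2 0.34, adjusted p = 0.0354). NRG1.1 stood at 50.7, 42.3 and 39.8 CPM in lsd1-1, at 40.7, 41.4 and 33.4 in LSD1-GFP, at 40.1, 51.1 and 36.2 in LSD1-GR+DEX and at 45.3, 43.7 and 38.5 in wild type. All groups overlapped. The log2 difference from wild type was 0.06 in lsd1-1 (SE 0.13, adjusted p = 0.870), -0.14 in LSD1-GFP (SE 0.13, adjusted p = 0.461) and 0.00 in LSD1-GR+DEX (SE 0.13, adjusted p = 0.995).

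NRG1.2 stood at 19.1, 16.1 and 18.5 CPM in lsd1-1, at 14.0, 15.4 and 12.7 in LSD1-GFP, at 16.7, 13.2 and 15.9 in LSD1-GR+DEX and at 16.5, 13.1 and 12.2 in wild type. The lsd1-1 libraries were above those of LSD1-GFP and overlapped wild type by 1 library. The mean was 17.9 ± 1.60 CPM in lsd1-1 and 13.9 ± 2.26 CPM in wild type, a log2 difference of 0.36 (SE 0.14, adjusted p = 0.136). The ratio of NRG1.2 to NRG1.1 averaged 0.370 ± 0.045 in lsd1-1, 0.333 ± 0.017 in LSD1-GFP, 0.338 ± 0.090 in LSD1-GR+DEX and 0.297 ± 0.030 in wild type, with no difference passing the test (exact permutation p = 0.509). The pair shares 69 runs of 50 bases, 2.67% of those in NRG1.1 and 2.42% of those in NRG1.2, and no run of 100. Reads of that stretch could be split between them.

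**Figure D3:**
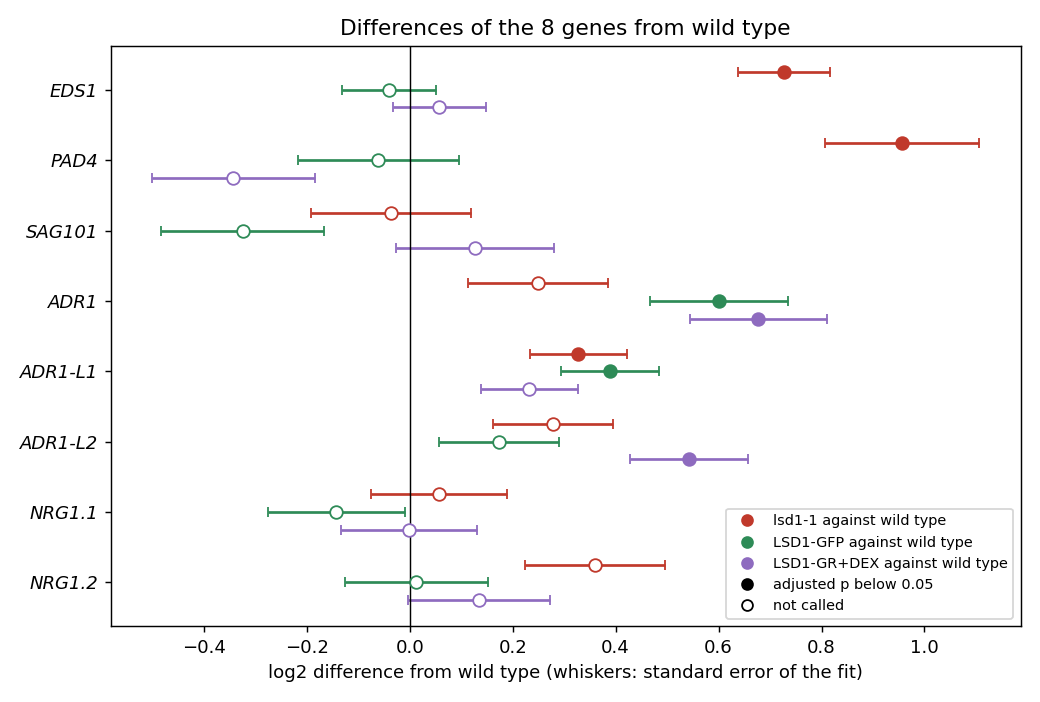
Log2 difference of each of the 8 genes from wild type in lsd1-1, LSD1-GFP and LSD1-GR+DEX, with the standard error of the fit as whiskers and filled points where the adjusted p was below 0.05. EDS1 at 0.73 and PAD4 at 0.96 stand out in lsd1-1, while ADR1 is filled in both fusion lines at 0.60 and 0.68.

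Per kb of exon, the order of the mean levels in CPM per kb differed between groups. In lsd1-1 EDS1 led at 37.7 ± 3.61, followed by ADR1-L1 at 23.6 ± 0.38 and PAD4 at 18.6 ± 1.75. PAD4 lay above ADR1-L2 at 17.2 ± 1.16 and NRG1.1 at 16.8 ± 2.16 there by less than their spread. In wild type EDS1 led at 22.8 ± 2.04, and ADR1-L1 followed at 18.8 ± 2.36, NRG1.1 at 16.1 ± 1.34 and ADR1-L2 at 14.2 ± 1.03. PAD4 stood behind these 4 in wild type at 9.59 ± 1.72, within its spread of SAG101 at 8.41 ± 1.61. In LSD1-GFP ADR1-L1 was highest at 24.6 ± 2.16, followed by EDS1 at 22.1 ± 1.32, and their ranges of mean ± SD overlapped. In LSD1-GR+DEX EDS1 at 23.7 ± 1.1, ADR1-L1 at 22.1 ± 1.55 and ADR1-L2 at 20.7 ± 3.82 did not differ beyond their spread. NRG1.2 was last in LSD1-GFP and LSD1-GR+DEX, at 4.84 ± 0.47 and 5.27 ± 0.65, and ADR1 was last in lsd1-1 and wild type, at 5.46 ± 0.55 and 4.595 ± 0.76. In wild type NRG1.2, at 4.80 ± 0.78, did not differ from ADR1 beyond the spread.

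Over the 12 libraries, the coefficient of variation was 41.8% for PAD4 and 26.3% for EDS1, and 12.4% to 21.5% for the other 6 genes. Pearson's r of log2 CPM between EDS1 and PAD4 was 0.91 over the 12 libraries, and the lsd1-1 libraries were the highest in both genes. EDS1 was related to NRG1.2 with r = 0.72. ADR1 was related to ADR1-L1 with r = 0.60 and to ADR1-L2 with r = 0.67, and SAG101 to NRG1.1 with r = 0.67. The libraries of a group share genotype and treatment, so these are not independent points.

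Among 15276 genes with at least 5 CPM on average, those with the pattern over the 12 libraries most like a given gene were taken as the 3 highest Pearson r of log2 CPM. For EDS1 these were AT3G22910 (r = 0.98), annotated as a P-type ATPase family protein, AT3G28510 (r = 0.96), a nucleoside triphosphate hydrolase family protein, and HR3 (r = 0.96), a homolog of RPW8. For PAD4 they were AT5G10760 (r = 0.97), an aspartyl protease family protein, the defence protein gene PR5 (r = 0.96) and the wall-associated kinase gene WAK3 (r = 0.96). For ADR1 they were AT1G10650 (r = 0.97), AT1G16700 (r = 0.97) and TPR2 (AT1G04130, r = 0.97), and for ADR1-L2 AT5G12930, ALDH3I1 and CAD1 (r = 0.94 to 0.96). The highest r was lower for SAG101 (0.91), ADR1-L1 (0.90), NRG1.1 (0.94) and NRG1.2 (0.91).

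Near relatives were read beside the 8 genes, since they share sequence or the RPW8 domain. HR2, HR3 and HR4, homologs of the powdery mildew resistance gene RPW8, were higher in lsd1-1 than in wild type. HR3 stood at 19.9, 11.97 and 13.5 CPM in lsd1-1, against 3.47, 2.96 and 2.93 CPM in wild type (log2 2.27, adjusted p = 0.000141). HR2 and HR4 had log2 differences of 1.92 (adjusted p = 0.000608) and 2.37 (adjusted p = 0.00437). HR4 had only 12, 12 and 4 counts in wild type, and 93 of its 1007 runs of 50 bases (9.24%) occur elsewhere in the genome. HR2, HR3 and HR4 were also called higher in lsd1-1 than in LSD1-GFP and LSD1-GR+DEX. In LSD1-GFP and LSD1-GR+DEX their log2 differences from wild type lay between -0.90 and 0.52, with the lowest adjusted p at 0.240. Of the 8 relatives listed, 5 were tested, and their median in lsd1-1 against wild type was 1.92.

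AT3G48080, the neighbour and close copy of EDS1, was at 1.94, 0.65 and 1.43 CPM in lsd1-1 and at 0.67, 0.36 and 0.76 CPM in wild type, a log2 difference of 1.15 (SE 0.44, adjusted p = 0.143). It had 4 to 20 counts in any library against at least 559 for EDS1. Of the 2527 runs of 50 bases in AT3G48080, 23 occur in EDS1, and of the 2502 in EDS1, 23 occur elsewhere. Neither gene has a run of 100 bases that occurs elsewhere. DAR5, an RPW8-domain relative, was not called in lsd1-1 (log2 -0.02, adjusted p = 0.978). AT5G66890, beside NRG1.1, had 10, 4 and 4 counts in lsd1-1 and at most 1 in any library of the other groups, too few to enter the test. HR1 and ADR1-L3 had at most 6 counts in any library and were not tested.

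Sensor receptors that act upstream of EDS1, those with a TIR domain, gave 1 call in lsd1-1 and several in the fusion lines. Of 18 listed, AT1G17615 had too few counts to enter the test. It had 19, 10 and 28 counts in lsd1-1 and at most 3 in any library of the other groups. Of 17 tested, AT1G17600 was called in lsd1-1, higher than wild type by 0.63 on the log2 scale (adjusted p = 0.0197), where 5.19% of all genes were called higher. Its call was lost without lsd1-1 replicate 1 or 3 or any 1 wild-type replicate (adjusted p from 0.0523 to 0.0833). With replicate number as a block, by which these samples pair, TAO1 was also called, lower in lsd1-1 (-0.30, adjusted p = 0.0111). In LSD1-GFP 4 of 17 fell below wild type, where 13.6% of all genes were called lower. CHS1, a TIR protein without leucine-rich repeats, averaged 1.82 ± 0.37 CPM in LSD1-GFP and 6.60 ± 1.08 CPM in wild type (log2 -1.85, adjusted p = 9.91e-05). TAO1 (-0.56, adjusted p = 0.00598), LAZ5 (-0.38, adjusted p = 0.0152) and AT4G12010 (-0.48, adjusted p = 0.0204) were the others. The count was 2 without LSD1-GFP replicate 3 or wild-type replicate 1, and 8 with replicate number as a block, by which these samples pair.

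In LSD1-GR+DEX 7 of the 17 TIR receptors fell below wild type, where 16.7% of all genes were called lower. TAO1 averaged 44.5 ± 5.68 CPM in LSD1-GR+DEX and 73.0 ± 9.13 CPM in wild type (log2 -0.71, adjusted p = 0.000973). RPP4 (-0.41, adjusted p = 0.00428), LAZ5 (-0.36, adjusted p = 0.0179) and RPP5 (-0.32, adjusted p = 0.020) followed. The count was 2 without LSD1-GR+DEX replicate 1, 3 without its replicate 3 or wild-type replicate 1 and 4 without wild-type replicate 2. The median log2 difference of the 17 was -0.01 in lsd1-1, -0.22 in LSD1-GFP and -0.25 in LSD1-GR+DEX. SNC1, RPP4 and RPP5 lie in 1 cluster of close copies, so reads may be split between them.

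Of 7 sensor receptors with a coiled coil, most of which do not rely on EDS1, ZAR1 was the 1 called in lsd1-1, higher by 0.49 (adjusted p = 0.0109), where 5.19% of all genes were called higher. RPM1, RPP13 and RPP8 fell in LSD1-GFP by 0.86, 0.50 and 0.65 on the log2 scale (adjusted p = 0.00188, 0.000418 and 0.00078). RPM1 and RPP8 fell in LSD1-GR+DEX by 0.71 and 0.51 (adjusted p = 0.00477 and 0.00307). Over all genes 13.6% were called lower in LSD1-GFP and 16.7% in LSD1-GR+DEX. The medians of the 7 were 0.01, -0.37 and -0.21 in lsd1-1, LSD1-GFP and LSD1-GR+DEX against wild type.

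Of 13 regulators of the node or of immune receptors, 3 were called higher in lsd1-1, BAP1, SGT1A and SGT1B. Of all genes, 5.19% were called higher there. BAP1, whose product works with the copine BON1 to hold back cell death, had a log2 difference of 2.06 (adjusted p = 0.00136). The receptor chaperone genes SGT1A and SGT1B had 1.31 (adjusted p = 0.0175) and 0.28 (adjusted p = 0.0204). The count was 1 without wild-type replicate 1 and 5 in a fit of these 2 groups alone. SGT1A was higher in all 3 altered groups, at 152 ± 35.3 CPM in lsd1-1, 153 ± 29.4 in LSD1-GFP, 254 ± 85.5 in LSD1-GR+DEX and 61.4 ± 17.5 in wild type. Its call in lsd1-1 was lost without lsd1-1 replicate 2 or wild-type replicate 1 or 3 (adjusted p from 0.0626 to 0.0809).

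In LSD1-GFP the regulators CPR1 (-0.28, adjusted p = 0.020), SAUL1 (-0.25, adjusted p = 0.0249) and NDR1 (-0.70, adjusted p = 0.0419) fell, where 13.6% of all genes were called lower, and SGT1A rose (1.32, adjusted p = 0.00561). The number that fell was 1 without LSD1-GFP replicate 1 or wild-type replicate 3, and all 3 of these calls were lost without LSD1-GFP replicate 3 or wild-type replicate 1. In LSD1-GR+DEX SGT1A (2.05, adjusted p = 0.000338), CAMTA3 (0.44, adjusted p = 0.0147) and NUDT7 (1.299, adjusted p = 0.0267) rose, 3 of 13 where 19.3% of all genes were called higher. Both CAMTA3 and NUDT7 were highest in LSD1-GR+DEX replicate 2, and without it the log2 difference of CAMTA3 was 0.22 and no longer called (adjusted p = 0.0779), and that of NUDT7 was 0.59 (adjusted p = 0.0182). CAMTA3 encodes a transcription factor known to repress EDS1, and NUDT7 a hydrolase that restrains EDS1 signalling. The count of regulators that rose was 1 without wild-type replicate 3, 5 without LSD1-GR+DEX replicate 1 and 1 in a fit of these 2 groups alone.

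Genes known to respond to EDS1 and PAD4 had a larger median difference in lsd1-1 than the node itself, a comparison that was not tested. Of 11 tested, 10 rose above wild type, where 5.19% of all genes were called higher, with a median log2 difference of 2.50, and the median of the 8 genes was 0.30. FMO1, the last enzyme of N-hydroxypipecolic acid synthesis, stood at 36.3, 18.6 and 39.1 CPM in lsd1-1, against 0.39, 0.18 and 0.19 CPM in wild type (log2 6.91, adjusted p = 5.76e-06). NUDT6 stood at 42.1, 27.1 and 36.5 CPM in lsd1-1, against 5.69, 3.86 and 5.01 CPM in wild type (log2 2.86, adjusted p = 4.34e-06). EDS5, the transporter of salicylic acid synthesis, and PBS3, the next enzyme, differed by 2.85 and 1.98 (adjusted p = 4.34e-06 each). The remaining gene, PR1, was above wild type in all 3 lsd1-1 libraries and not called (log2 1.02, adjusted p = 0.446).

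In LSD1-GFP 2 of the 11 were higher, AT5G52810 and NUDT6 (0.40 and 0.70, adjusted p = 0.0088 and 0.030), and PR1 was lower (-3.20, adjusted p = 0.0111). Of all genes, 15.5% were called higher there and 13.6% lower. In LSD1-GR+DEX AT5G52810 and EDS5 were higher (0.42 and 1.17, adjusted p = 0.0056 and 0.00101) and PBS3 was lower (-1.02, adjusted p = 0.000336). Of all genes, 19.3% were called higher there and 16.7% lower. With 11 genes, none of these counts stands clear of the share over all genes. In LSD1-GFP the count of higher genes was 1 without LSD1-GFP replicate 1 or wild-type replicate 2. It was 4 with replicate number as a block, by which these samples pair, and 4 with DESeq2, against 1 with limma voom. In LSD1-GR+DEX it was 4 with DESeq2. EDS1 and PAD4 had log2 differences from wild type of -0.04 and -0.06 in LSD1-GFP and of 0.06 and -0.34 in LSD1-GR+DEX, and were not called there.

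**Figure D4:**
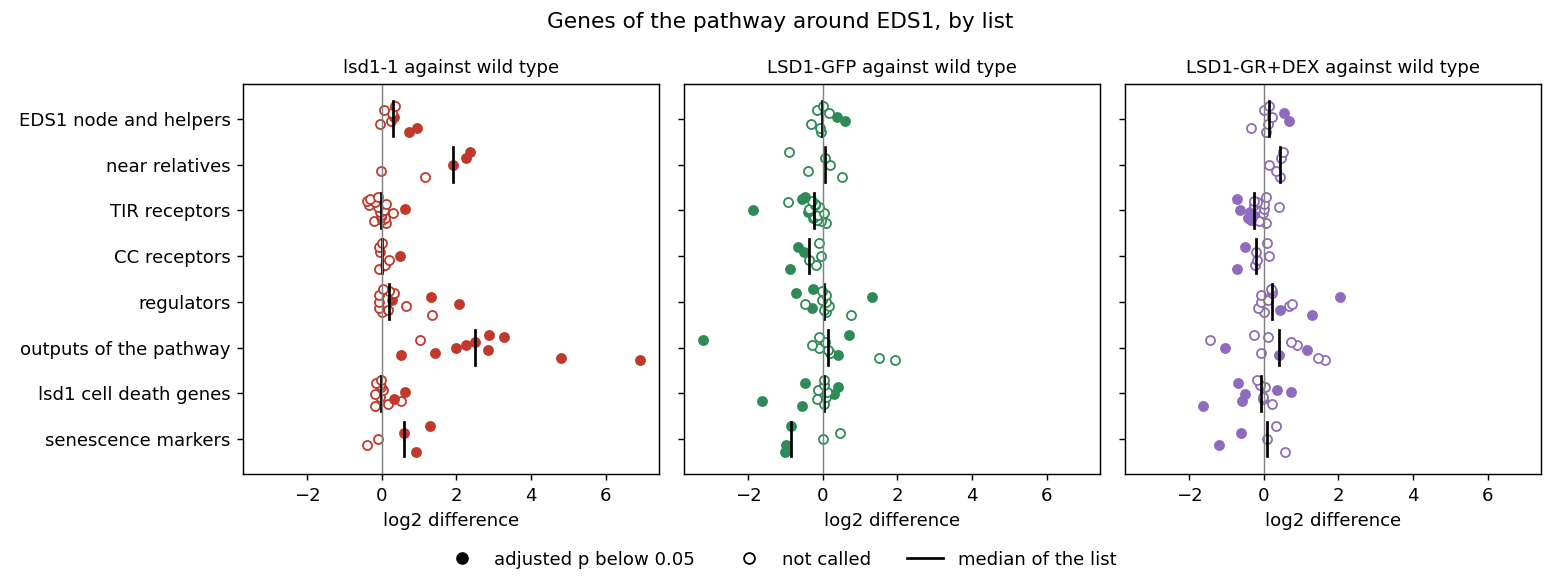
Log2 difference from wild type of the genes of each list, as 1 point a gene, in lsd1-1, LSD1-GFP and LSD1-GR+DEX, with filled points where the adjusted p was below 0.05 and a bar at the median of the list. In lsd1-1 the outputs of the pathway have a median of 2.50, the 8 genes of the node 0.30 and the TIR receptors -0.01.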

How the data were processed

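Rosette messenger RNA of 12 libraries (4 groups of 3) was sequenced from a stranded kit, per the labels' protocols. The authors deposited raw counts for 27416 gene models with no normalization. Per the submitters' processing notes, Trimmomatic 0.30, GSNAP, HTSeq 0.6.1 and the TAIR10 build were used. No source used here gives the strand setting or how reads with several matches were counted. The effect of aligning Ws-0 reads to that reference was not tested.

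From these counts, edgeR 4.0.16 in R 4.3.3 kept 19487 genes (filterByExpr), scaled libraries by TMM and fitted 1 robust quasi-likelihood model with a mean for each group (biological coefficient of variation 11.2%). Contrasts were two-sided, with Benjamini-Hochberg adjustment over all genes tested and a call at an adjusted p below 0.05; all p-values here that are not named as permutation p come from this test unless another is named. The SE of a log2 difference is its size over the square root of F. CPM use TMM-scaled totals. The code was tested on simulated data. Symbols and positions came from TAIR10.1, where 26719 loci were found. Ratios were tested by an exact permutation computed with numpy 2.4.6 on log2 ratios of counts plus 0.5.

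Alternatives were RLE size factors, DESeq2 1.42.0, limma voom 3.58.1, no low-count filter, the 2 compared groups alone, replicate number as a block and each library left out. Same-numbered samples deviated together (r above 0.1 in all 3 pairs) for lsd1-1 and wild type (0.168 to 0.388). They also did for LSD1-GFP and wild type (0.208 to 0.469) and lsd1-1 and LSD1-GFP (0.138 to 0.339). Comparisons with LSD1-GR+DEX did not meet this limit, as replicate 1 gave 0.035, 0.018 and -0.034, though replicates 2 and 3 gave 0.123 to 0.328. This pairing is read from the data, as the labels give only shared numbers. No 2 libraries agreed within sampling noise.

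The 8 genes, the gene lists and the tests were chosen with earlier results of these data known. Named are the 8, their near relatives, LSD1, up to 4 genes for each list and direction with the lowest adjusted p, and for each of the 8 the 3 genes most alike. AT1G17615, a TIR gene with too few counts for the test, is named as well. TIR proteins, coiled-coil receptors, regulators, responding genes, lsd1 cell death genes and senescence markers were lists written from textbook knowledge.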

Additional observations from a re-analysis of the deposited data

How the results depend on the processing

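The 8 genes in 6 comparisons gave 576 alternative values, of which 546 kept direction and call, 21 lost the call, 9 gained it and none changed sign while called. EDS1 and PAD4 stayed called in lsd1-1 against each other group under all alternatives run, with adjusted p of at most 0.0100. With replicate number as a block, the number of genes called was 2889 (1617 without it, 1610 of them shared) in lsd1-1 against wild type and 5335 (3469 without it) in lsd1-1 against LSD1-GR+DEX. With that block, 4 of the 8 genes were called in lsd1-1 against LSD1-GFP, where 6793 of all 19487 genes were called (5159 without it). The block changed calls of the 8 only there and for ADR1-L1 in LSD1-GR+DEX against wild type (0.23, adjusted p = 0.0225). In that comparison same-numbered samples gave r = 0.035 for replicate 1, 0.220 for replicate 2 and 0.314 for replicate 3. Across all groups, 11 of 12 libraries correlated best with their own number in another group. With 1 library left out, 764 to 1375 genes were called in lsd1-1 against wild type and 2058 to 3502 in lsd1-1 against LSD1-GR+DEX. In LSD1-GR+DEX against LSD1-GFP it was 0 to 2 of the 8, where 4996 to 6165 of all genes were called. In that last comparison 1 of the 8 was called with DESeq2, with limma voom and in a fit of the 2 groups alone. The edgeR fit of all groups called 2 of the 8 there and 32.8% of all genes. The adjusted permutation p ranged with 1 library left out from 0.00227 to 0.090 for ADR1-L1 to ADR1, from 0.00227 to 0.162 for ADR1-L2 to ADR1 and from 0.00682 to 0.0624 for ADR1-L2 to ADR1-L1; the cause was not tested. Of 5102 alternative values for the other named genes, 4788 kept direction and call. One changed direction past the threshold, BON1 in lsd1-1 against LSD1-GR+DEX without LSD1-GR+DEX replicate 2 (0.42, adjusted p = 0.0263, against a range down to -0.23 with other libraries left out). With 3 libraries a group, a difference as small as that of ADR1-L1 in lsd1-1 against wild type lost its call in 6 of 12 alternatives.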

Other observations

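Of 12 genes tied to LSD1 or to lsd1 cell death, 2 were called higher in lsd1-1 than in wild type, the NADPH oxidase gene RBOHD (0.63, adjusted p = 0.000866) and the salicylic acid receptor gene NPR1 (0.32, adjusted p = 0.0471), where 5.19% of all genes were called higher. The call of NPR1 was lost in 5 of the 6 alternatives that kept all libraries and without any library but lsd1-1 replicate 2, which left a count of 1. In LSD1-GR+DEX RBOHD (0.74, adjusted p = 4.01e-05) and RBOHF (0.36, adjusted p = 0.0252) rose and LOL1, MC2, CAO and CAT3 fell, where 19.3% of all genes were called higher and 16.7% lower. LOL1, a relative of LSD1 that promotes cell death, stood at 7.16, 8.75 and 6.29 CPM in LSD1-GR+DEX, against 23.05, 23.3 and 22.4 CPM in wild type (log2 -1.63, adjusted p = 6.84e-06). The count that rose was 1 without LSD1-GR+DEX replicate 1 or 3 or wild-type replicate 1 or 3. In LSD1-GFP CAO (0.32, adjusted p = 0.00505) and CAT1 (0.42, adjusted p = 0.0439) rose, and MC2, LOL1 and CAT3 fell by 1.63, 0.54 and 0.47 (adjusted p = 0.000169, 0.0157 and 0.030), where 15.5% of all genes were called higher and 13.6% lower. There, without 1 library, the count that rose was 1 for LSD1-GFP replicates 1, 2 and 3 and wild-type replicates 1 and 2, and the count that fell was 1 for LSD1-GFP replicate 2 and 2 for wild-type replicates 1 and 2.

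Of 5 senescence markers tested, WRKY53 (1.29, adjusted p = 0.00186), SAG13 (0.91, adjusted p = 0.0433) and NAP (0.59, adjusted p = 0.0451) rose in lsd1-1, where 5.19% of all genes were called higher. The count was 1 without lsd1-1 replicate 1, 2 or 3 or wild-type replicate 3. SEN1 was called lower in lsd1-1 with replicate number as a block, by which these samples pair (-0.41, adjusted p = 0.0280), and without lsd1-1 replicate 2 (-0.62, adjusted p = 0.0466). In LSD1-GFP SEN1, SAG13 and WRKY53 fell by 0.98, 1.01 and 0.85 (adjusted p = 0.00178, 0.0144 and 0.0191), where 13.6% of all genes were called lower. That count was 1 without LSD1-GFP replicate 2 or 3 or wild-type replicate 1, and NAP was called higher with the block (0.46, adjusted p = 0.0393). In LSD1-GR+DEX SEN1 and NAP fell by 1.21 and 0.62 (adjusted p = 0.000353 and 0.0165), where 16.7% of all genes were called lower. That count was 1 without wild-type replicate 2. SAG101, first described as a senescence gene, had log2 differences from wild type of -0.04 in lsd1-1, -0.32 in LSD1-GFP and 0.13 in LSD1-GR+DEX and was not called in any of these.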
